A study of Mus musculus with 50 samples.

Results

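*Cul1*, *Xpo7*, *Trio*, *Sp4*, *Herc1* and *Rb1cc1* are mouse orthologs of schizophrenia risk genes that reached exome-wide significance through rare coding variants, other than *Setd1a* itself, the glutamate receptor genes *Grin2a* and *Gria3*, and the calcium channel gene *Cacna1g*. They were taken by name, 6 genes of the 55487 in the count files, and no measured value was used to choose them. Each was followed in frontal cortex at 5 ages in wild-type mice and in *Setd1a*+/- mice, which keep 1 intact copy of this gene for a histone methyltransferase. All 6 passed the filter on low counts.

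The genes have no shared pathway, and their products act in transcription, nuclear transport, signalling to the cytoskeleton, ubiquitination and autophagy. *Sp4* encodes a zinc finger transcription factor of the Sp family that binds GC boxes and is abundant in neurons. *Xpo7* encodes a nuclear transport receptor of the karyopherin beta family, which carries folded proteins through the nuclear pore under the control of the GTPase Ran. *Trio* encodes a guanine nucleotide exchange factor that activates Rac1 and acts in axon guidance and dendritic growth. *Cul1* encodes the scaffold of the SCF ubiquitin ligases, *Herc1* a giant ubiquitin ligase of the HERC family, and *Rb1cc1* the FIP200 subunit of the ULK complex that starts autophagy.

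Polyadenylated RNA was sequenced from 50 frontal cortices, 5 wild-type and 5 *Setd1a*+/- per age, in embryos at E14 and E18 and after birth at P7, P35 and P70. The labels give the strain as C57BL/6NTac. Per the study's methods the animals were males on a mixed C57BL/6NTac and C57BL/6J background, and the *Setd1a*+/- mice carried 1 loss-of-function allele (tm1d). The animals came from crosses of heterozygous males with wild-type females, and the methods name littermates for the postnatal ages only. The embryonic dissections were of frontal brain regions and the postnatal ones of both frontal cortices, so each library is a mixture of cell types. In such bulk RNA, fewer cells of a type and less RNA per cell cannot be told apart. Nothing in the labels ties a library to a litter.

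Library totals ran from 35507165 to 43907318 counts. The lowest count of any of the 6 genes in a library was 732, for *Sp4*. The spread between mice mostly exceeded counting error, save in tight groups such as *Cul1* and *Rb1cc1* in wild-type P7, with coefficients of variation of 1.33% and 1.62%, where counting error is about as large. The gene-level counts could not check the genotype labels. *Setd1a* was 0.10 higher on the log2 scale in the libraries labelled *Setd1a*+/- (SE 0.03, edgeR adjusted p = 0.00679, n = 25 per genotype), and 52.3% of its exonic bases are shared with other annotated genes. High *Xist* counts, of at least 55644 against at most 27 elsewhere, marked 2 wild-type libraries, E14 replicate 5 and E18 replicate 2, which do not match the stated male sex. P7 wild-type replicate 2 stood apart from its group. Its summed choroid plexus markers were 634 CPM against at most 6.92 CPM in the other P7 wild-type libraries, and its oligodendrocyte markers 1484 CPM against at most 262 CPM. Choroid plexus markers also varied before birth, from 12.8 to 409 CPM in wild-type and from 15.6 to 479 CPM in *Setd1a*+/- libraries at E14, and at E18 they were 242 and 201.6 CPM in 2 wild-type libraries and at most 14.2 CPM in *Setd1a*+/-. Their part in the results at these ages was not tested. All tests were also run without these 3 libraries.

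All coordinates are those of the annotation used for counting, on GRCm38. *Sp4* (ENSMUSG00000025323) lies on the minus strand at chr12:118234933-118301440 and holds 5770 exonic bases, the union of its annotated exons. *Xpo7* (ENSMUSG00000022100) lies on the minus strand at chr14:70654246-70766628 with 19005 exonic bases. *Trio* (ENSMUSG00000022263) lies on the minus strand at chr15:27730651-28025848 with 23395 exonic bases. Plus-strand genes are *Cul1* (ENSMUSG00000029686) at chr6:47453398-47526139 with 4040 exonic bases, *Herc1* (ENSMUSG00000038664) at chr9:66350450-66508775 with 27464, and *Rb1cc1* (ENSMUSG00000025907) at chr1:6206197-6276648 with 14690. A large exonic length is a property that most of the 6 share although it was not used to choose them. As a union of exons it can exceed the length of any single transcript, and transcript lengths were not measured. *Herc1* was at the 99.9th percentile of exonic length among protein-coding genes, *Trio* at the 99.7th, *Xpo7* at the 99.3rd and *Rb1cc1* at the 97.9th, whereas *Sp4* was at the 74.5th and *Cul1* at the 57th. Reads over shared exons were counted for every gene there and strand was not used, which touches 4.75% of the exonic bases of *Cul1* (shared with A930035D04Rik), 3.99% of those of *Herc1*, 3.80% of those of *Rb1cc1*, 0.205% of those of *Xpo7* and none of *Trio* or *Sp4*.

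The promoters of *Sp4*, *Trio* and *Herc1* are shown because Sp4 is itself a factor that binds GC boxes and because these members had a single start site in the promoter table. RefSeq's promoter table (GRCm38.p6) had entries for 4 of the 6 genes, and the 3 shown had 1 entry each, whose start site is the 5′ end of the gene in the counting annotation. The 250 bases before the start site are given 5′ to 3′ on the strand of the gene, with the GC box GGGCGG or its complement CCGCCC in capitals. The windows are chr12:118301441-118301690 for *Sp4*, chr15:28025849-28026098 for *Trio* and chr9:66350200-66350449 for *Herc1*.
Sp4: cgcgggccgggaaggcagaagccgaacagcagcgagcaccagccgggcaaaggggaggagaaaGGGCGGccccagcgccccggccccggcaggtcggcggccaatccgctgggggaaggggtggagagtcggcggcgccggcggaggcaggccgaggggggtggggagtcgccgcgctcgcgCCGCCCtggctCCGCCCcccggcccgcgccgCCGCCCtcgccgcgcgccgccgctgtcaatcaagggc
Trio: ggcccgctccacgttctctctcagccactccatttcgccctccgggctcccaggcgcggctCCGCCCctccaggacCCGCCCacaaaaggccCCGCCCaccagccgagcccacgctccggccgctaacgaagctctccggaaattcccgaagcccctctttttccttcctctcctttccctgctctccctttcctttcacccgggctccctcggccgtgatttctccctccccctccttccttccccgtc
Herc1: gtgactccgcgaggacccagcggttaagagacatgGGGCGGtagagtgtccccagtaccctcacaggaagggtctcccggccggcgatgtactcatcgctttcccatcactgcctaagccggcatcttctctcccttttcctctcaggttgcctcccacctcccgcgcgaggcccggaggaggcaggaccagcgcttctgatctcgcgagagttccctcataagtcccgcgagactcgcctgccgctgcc

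The *Sp4* window held 4 GC boxes, 1 on the strand of the gene and 3 on the other, and 4.09% of all 32841 windows of this length held as many or more. It also held 37 CpG dinucleotides in 80% GC, against medians of 6 CpG and 52.4% GC over all windows. The shares of windows given here were not matched for GC content. The *Trio* window held 3 GC boxes, all on the other strand, a number reached by 8.47% of windows. The *Herc1* window held 1, and 32.7% of all windows held at least 1. The *Cul1* entries numbered 3, with 0, 3 and 1 GC boxes in the order of their start sites. These matches are a description of the sequence, and no binding was measured.

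Levels between genes were compared per length, as RPKM. The length was the union of annotated exons, so a gene whose transcripts hold only part of that union reads too low. The order of the genes depends on this length. In wild-type cortex at E14 *Cul1* was the most abundant of the 6 at 41.97 ± 2.89 RPKM (mean ± SD, n = 5), at the 93.7th percentile of tested genes. *Trio* followed at 13.2 ± 2.1 RPKM, *Herc1* at 10.4 ± 1.6 and *Sp4* at 9.31 ± 0.49, and these 3 neighbours in the order lay within or near the spread of the next. *Xpo7* at 7.03 ± 0.33 and *Rb1cc1* at 5.53 ± 0.26 RPKM were the lowest. At P70 the order was *Cul1* at 26.6 ± 0.70 RPKM, *Trio* at 10.2 ± 1.3, *Herc1* at 9.45 ± 0.72, *Rb1cc1* at 6.39 ± 0.51, *Xpo7* at 4.98 ± 0.27 and *Sp4* at 4.16 ± 0.25. In RPKM *Rb1cc1* thus stood above *Xpo7* and *Sp4* at P70 and below them at E14. Without division by length, wild-type *Rb1cc1* and *Xpo7* were level at P70, at 93.8 ± 7.5 and 94.6 ± 5.2 CPM. At E14 *Rb1cc1*, at 81.3 ± 3.8 CPM, then lay above *Sp4*, at 53.7 ± 2.8 CPM. The values of single libraries that follow are CPM, counts per 1000000 of the TMM-scaled library size, and serve to compare libraries for 1 gene.

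**Figure D1:**
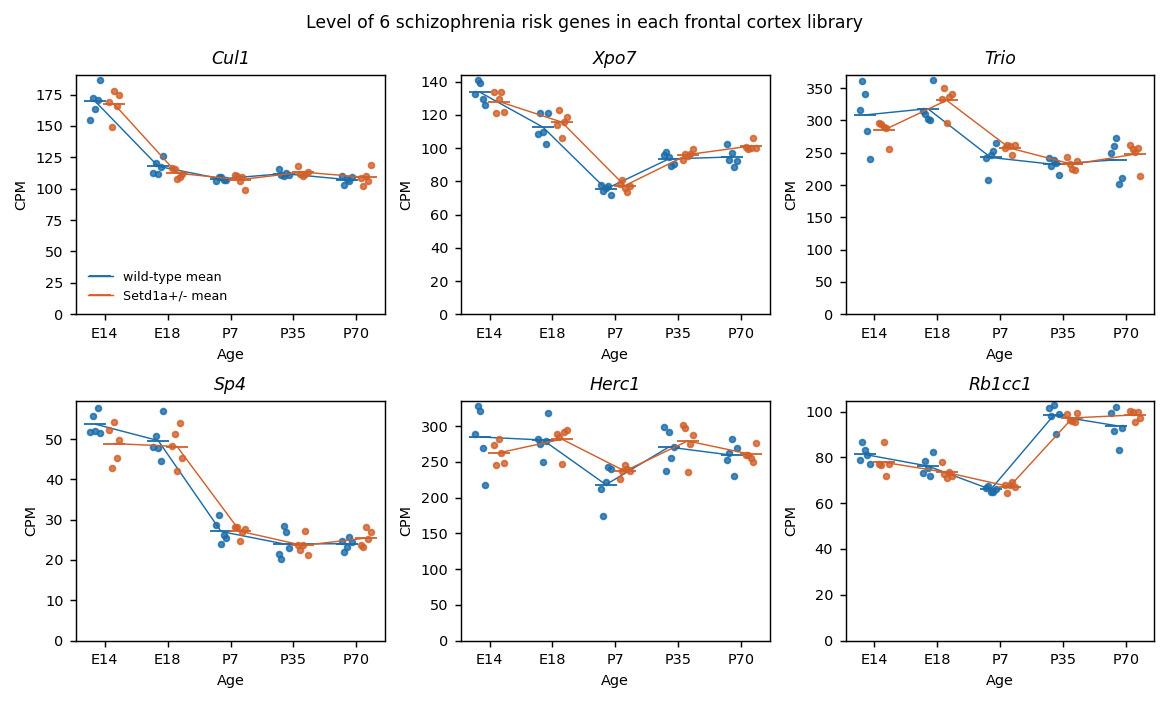
Level of each gene in CPM (linear axis from 0) at E14, E18, P7, P35 and P70. Points are libraries, blue wild-type and orange Setd1a+/- (n = 5 per group), and horizontal bars joined by lines are group means. Sp4 and Xpo7 are lower in every P7 library than in any E18 library, Rb1cc1 is highest at P35 and P70, and the 2 genotypes overlap at each age for each gene.

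To ask how the 6 genes changed through cortical development, ages were contrasted within each genotype. All 6 genes were called for age in wild-type cortex, where 95% of tested genes were, and all 6 in *Setd1a*+/- cortex, where 95.1% were (edgeR quasi-likelihood F test, adjusted p below 0.05), so that a change with age sets none of them apart. The pattern of the change did differ among them. Markers of cell types changed along with age. Summed markers of cortical progenitors in wild-type libraries went from between 1730 and 2488 CPM at E14 to between 108 and 151 CPM at P70, and those of oligodendrocytes from between 88.2 and 103 to between 3494 and 4239 CPM. The part of this change in the levels of the 6 genes was not tested. The dissection also changed between E18 and P7, from frontal brain regions to frontal cortex. Age and dissection therefore cannot be told apart at that step or between embryonic and mature ages.

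*Sp4* had the largest fall with age of the 6. Wild-type *Sp4* read 51.7, 55.7, 52.0, 57.6 and 51.5 CPM at E14 and 48.1, 50.9, 47.8, 44.5 and 56.8 CPM at E18. At P7 it read 28.6, 31.2, 24.0, 26.1 and 25.4 CPM, and at P70 24.7, 22.1, 23.1, 25.7 and 24.6 CPM. Every embryonic library lay above every library at P7 or later. Between E18 and P7 *Sp4* decreased by 0.87 on the log2 scale in wild-type (SE 0.08, adjusted p = 1.17e-12 by edgeR) and by 0.83 in *Setd1a*+/- cortex (SE 0.08, adjusted p = 5.54e-12), where it went from 42.1 to 54.0 CPM at E18 to 24.7 to 28.3 CPM at P7. The mean of P35 and P70 had decreased by 53.5% from the mean of E14 and E18 in wild-type (log2 change -1.10, SE 0.06) and had decreased by 49.5% in *Setd1a*+/- (log2 change -0.99, SE 0.06). Among all tested genes, 15.6% had a wild-type change as low or lower. The step from P7 to P35 was called lower in *Setd1a*+/- (-0.20, SE 0.08, adjusted p = 0.0296) and not in wild-type (-0.17, SE 0.08, adjusted p = 0.0597). The *Setd1a*+/- call was lost on leaving out any of 5 *Setd1a*+/- libraries, 2 of P35 and 3 of P7 (adjusted p up to 0.0960), and in wild-type a call was gained on leaving out any of 4 wild-type libraries (adjusted p between 0.0120 and 0.0490).

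The other 8 Sp genes mostly went the same way. In wild-type cortex 6 of them were lower in mature than in embryonic cortex, 1 was higher and 1 was not called, with a median log2 change of -1.06 against -0.01 for all tested genes, of which 44.2% were lower and 43.8% higher. *Sp8*, a factor of ventral forebrain progenitors and interneurons, decreased by 2.29 (SE 0.28). *Sp7*, the bone factor osterix, was higher by 1.72 (SE 0.43) but stayed low, at 0.118 RPKM at E14 and 1.01 RPKM at P35. None of the 8 was called for genotype, a test that called 4.43% of all genes.

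*Xpo7* fell before birth and again to P7, and then recovered in part. Wild-type *Xpo7* read 132.6, 140.8, 139, 129.3 and 126 CPM at E14 and 108, 121, 109, 103 and 121 CPM at E18. It read 78.0, 74.2, 75.8, 77.0 and 72.0 CPM at P7 and 95.6, 97.7, 94.7, 89.0 and 90.3 CPM at P35. The 4 groups did not overlap, with P7 the lowest. The steps in wild-type were -0.25 from E14 to E18 (SE 0.04, adjusted p = 4.07e-06), -0.58 from E18 to P7 (SE 0.04, adjusted p = 1.91e-15) and 0.31 from P7 to P35 (SE 0.04, adjusted p = 3.90e-08), all by edgeR. In *Setd1a*+/- cortex the same steps were -0.15, -0.58 and 0.31 and each was called. There the libraries of E14 (120.9 to 133.9 CPM) and E18 (105.9 to 123.2 CPM) overlapped. Those of P35 (at most 99.39 CPM) lay just below those of P70 (at least 99.55 CPM). From embryonic to mature cortex *Xpo7* decreased by 23.3% in wild-type and decreased by 18.9% in *Setd1a*+/-.

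Among the other 18 karyopherins, nuclear import and export receptors, 14 were lower and 3 higher in mature wild-type cortex, with a median log2 change of -0.49. Of all tested genes 44.2% were lower and 43.8% higher. *Xpo1*, the main exporter of proteins with a leucine-rich signal, decreased by 1.45 (SE 0.05). *Xpot*, the tRNA exporter, rose by 0.24 (SE 0.03). Of the 6 genes of the Ran cycle 4 were lower and 2 higher, all called, as were 88% of genes. *Rcc1*, the nucleotide exchange factor of Ran, decreased by 1.5 (SE 0.07), and *Rangap1*, its GTPase activating protein, rose by 0.38 (SE 0.03). None of the 18 and none of the 6 was called for genotype, where 4.43% of all genes were.

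*Trio* stayed at its embryonic level until E18 and fell by P7. Wild-type *Trio* read 316, 362, 341, 284 and 240 CPM at E14 and 315, 311, 303, 300 and 363 CPM at E18. It read 242, 208, 247, 253 and 265 CPM at P7 and 250.1, 259.9, 273.1, 201.6 and 211.1 CPM at P70. E18 and P7 did not overlap. The E14 libraries spread over the widest range, and only replicate 5, 1 of those with *Xist* counts, reached down to the level of P7, whereas the other 4 read 283.7 CPM or more. *Trio* decreased by 0.39 from E18 to P7 in wild-type (SE 0.08, adjusted p = 2.76e-05) and by 0.36 in *Setd1a*+/- (SE 0.08, adjusted p = 7.66e-05, edgeR). Without P7 wild-type replicate 2, the lowest of its group at 208 CPM, the wild-type step was -0.34 (adjusted p = 0.000270). From embryonic to mature cortex *Trio* decreased by 24.8% in wild-type and decreased by 21.9% in *Setd1a*+/-. In *Setd1a*+/- cortex *Trio* rose by 0.22 from E14 to E18 (SE 0.08, adjusted p = 0.0146), from 297, 295, 290, 288 and 255 CPM to 334, 350, 296, 336 and 341 CPM, and the call was lost without E14 *Setd1a*+/- replicate 5 (0.18, adjusted p = 0.0555). In wild-type the same step was 0.05 (SE 0.08, adjusted p = 0.627), and the age by genotype interaction of *Trio* was not called (adjusted p = 0.984).

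The 19 genes of the Trio pathway, among them its paralog *Kalrn*, guidance receptors and kinases, were lower in 12 cases and higher in 5 in mature wild-type cortex, with a median of -0.35, against 44.2% lower and 43.8% higher over all genes. *Kalrn* went the other way from *Trio*. It rose by 1.75 (SE 0.07), from 9.44 RPKM at E14 to 29.7 RPKM at P70, so that *Trio* was the more abundant of the paralogs per length at E14 and *Kalrn* at P70. *Triobp*, which encodes an actin-bundling partner of Trio, decreased by 3.27 (SE 0.07). None of the 19 was called for genotype, where 4.43% of all genes were.

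*Cul1* made most of its fall before birth. It read 154.9, 171.9, 163.8, 170.7 and 186.6 CPM in wild-type libraries at E14 and 113, 120, 112, 118 and 126 CPM at E18, with no overlap. In *Setd1a*+/- libraries it read 169, 149, 178, 166 and 175 CPM at E14 and 117, 116, 107, 110 and 112 CPM at E18. The decrease from E14 to E18 was 0.52 in wild-type (SE 0.04, adjusted p = 7.95e-14) and 0.58 in *Setd1a*+/- (SE 0.04, adjusted p = 3.71e-15, edgeR). From P7 onwards *Cul1* was nearly level, with group means between 107 and 113 CPM. A small decrease from E18 to P7 was called in wild-type (-0.13, SE 0.04, adjusted p = 0.00926) and not in *Setd1a*+/- (-0.07, SE 0.04, adjusted p = 0.164). From embryonic to mature cortex *Cul1* decreased by 22.4% in wild-type and decreased by 19% in *Setd1a*+/-.

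The partners of *Cul1* did not move in 1 direction. Of 28 genes of SCF ligases and their NEDD8 and exchange machinery, 15 were lower and 13 higher in mature wild-type cortex, with a median of -0.10, near the even split of all genes (44.2% lower, 43.8% higher). *Skp2*, the F-box protein that drives cell cycle entry, decreased by 2.43 (SE 0.08), and *Fbxo2*, an F-box protein of neurons that binds glycoproteins, rose by 5.21 (SE 0.13), from 1.20 RPKM at E14 to 73.3 RPKM at P70. Of the other 7 cullin genes 5 were lower and 2 higher, from *Cul7* at -1.76 (SE 0.04) to *Cul9* at 0.21 (SE 0.06). *Cul9* was not called when libraries were scaled by their totals alone (0.08, adjusted p = 0.149). None of the 28 or the 7 was called for genotype, where 4.43% of all genes were. *Cul7* had a difference of -0.08 (SE 0.02, adjusted p = 0.0700) and was called with the length correction (adjusted p = 0.0263), with the replicate block (0.0344) and on leaving out any of 4 single libraries (down to 0.0370).

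*Herc1* changed least of the 6 between embryonic and mature cortex. Wild-type *Herc1* read 290, 328, 321, 269 and 217 CPM at E14 and 282, 275, 251, 279 and 318 CPM at E18. It read 212, 174, 223, 243 and 240 CPM at P7 and 299, 237, 292, 256 and 271 CPM at P35. P7 lay below E18 without overlap, and P35 overlapped with every other age. *Herc1* decreased by 0.36 from E18 to P7 (SE 0.08, adjusted p = 0.000180) and rose by 0.31 from P7 to P35 (SE 0.08, adjusted p = 0.00106) in wild-type, and in *Setd1a*+/- by -0.25 (adjusted p = 0.00792) and 0.24 (adjusted p = 0.0116, edgeR). Without P7 wild-type replicate 2 the wild-type steps were -0.29 (adjusted p = 0.00177) and 0.24 (adjusted p = 0.00935). The range of the 5 wild-type group means was as small or smaller in 8.48% of tested genes.

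Whether mature and embryonic *Herc1* differed depended on the processing. The log2 change was -0.09 in wild-type (SE 0.06, adjusted p = 0.132) and -0.01 in *Setd1a*+/- (SE 0.06, adjusted p = 0.845). With a correction for gene length it was 0.05 (adjusted p = 0.108) and 0.06 (adjusted p = 0.0373), and with library totals as the only scaling -0.22 (adjusted p = 0.000127) and -0.14 (adjusted p = 0.0102). Without the libraries with *Xist* counts the wild-type change was -0.15 (adjusted p = 0.0154). The joint test of *Herc1* over ages in *Setd1a*+/- cortex (adjusted p = 0.0375) was the weakest of the 12 joint tests of the members and ranged up to 0.0845 on leaving out single libraries.

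Among the genes around *Herc1*, those of TSC and mTOR signalling held 2 that differed by genotype. Of 12 genes of the TSC complex, mTOR complexes and clathrin and Arf partners, 2 were called for genotype, both lower in *Setd1a*+/- cortex, against 4.43% of all genes. *Akt1s1*, which encodes the mTORC1 inhibitor PRAS40, decreased by 0.13 (SE 0.02, adjusted p = 0.000109, n = 25 per genotype) and was called in each of 65 alternatives. *Tbc1d7*, the third subunit of the TSC complex, decreased by 0.13 (SE 0.04, adjusted p = 0.0281) and was not called in 7 of the 65, among them the fit without the 2 libraries with *Xist* counts (-0.12, adjusted p = 0.0766). All 12 changed with maturation, as did 88% of all genes, 7 lower and 5 higher, from *Tsc1* at -0.47 (SE 0.05) to *Cltc*, the clathrin heavy chain, at 0.72 (SE 0.03). The HERC genes *Herc2*, *Herc3* and *Herc6* were higher in mature cortex, *Herc6* by 2.56 (SE 0.11). In wild-type *Herc4* had a change of -0.07 (SE 0.04, adjusted p = 0.0765 by edgeR), which had the opposite sign with the length correction (0.02). It was called lower with totals alone (-0.20, adjusted p = 3.42e-06), without the libraries with *Xist* counts (-0.09, adjusted p = 0.0454) and on leaving out any of 5 single libraries (adjusted p down to 0.0287). In *Setd1a*+/- whether *Herc4* was called stayed the same in only 17 of 50 fits that left out 1 library (adjusted p between 0.0283 and 0.155, edgeR).

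*Rb1cc1* was the 1 gene of the 6 that was higher in mature than in embryonic cortex. Wild-type *Rb1cc1* read 73.0, 78.3, 75.5, 72.1 and 82.2 CPM at E18 and 66.6, 67.3, 64.9, 65.0 and 66.0 CPM at P7. At P35 it read 101, 98.1, 103, 90.1 and 99.1 CPM, and in *Setd1a*+/- libraries 67.9, 64.5, 67.7, 69.0 and 66.9 CPM at P7 and 99.0, 96.5, 95.7, 95.6 and 99.2 CPM at P35. In both genotypes every P7 library lay below every library of any other age. The rise from P7 to P35 was 0.58 in wild-type (SE 0.04, adjusted p = 2.28e-15) and 0.53 in *Setd1a*+/- (SE 0.04, adjusted p = 2.43e-14, edgeR). The fall from E18 to P7 was 0.21 in wild-type (adjusted p = 7.22e-05) and 0.13 in *Setd1a*+/- (adjusted p = 0.0111), and the latter was not called with DESeq2 or its size factors, with a filter of 10 CPM or with the length correction (adjusted p between 0.0565 and 0.0781). Mature cortex exceeded embryonic cortex by 22.0% in wild-type and 29.5% in *Setd1a*+/-.

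The other subunits of the ULK complex did not all change in the same direction from embryonic to mature cortex. In wild-type cortex *Ulk1*, the kinase, decreased by 1.05 (SE 0.05), *Ulk2* decreased by 0.42 (SE 0.04), *Atg13* rose by 0.74 (SE 0.04), and *Atg101* was not called (0.02, SE 0.04). Of 31 genes of the downstream autophagy machinery 19 were higher and 9 lower, with a median of 0.22, where 43.8% of all genes were higher and 44.2% lower. *Gabarapl1*, an ATG8 protein of the autophagosome membrane, rose by 2.09 (SE 0.05) and *Gabarap*, of the same family, decreased by 0.71 (SE 0.10). By genotype *Ulk2* was lower in *Setd1a*+/- cortex by 0.09 (SE 0.03, adjusted p = 0.0293), and *Pik3r4*, the VPS15 subunit of the phosphatidylinositol 3-kinase complex, was lower by 0.07 (SE 0.02, adjusted p = 0.0352). Both calls were near the threshold, with *Ulk2* not called in 14 and *Pik3r4* in 31 of 65 alternatives. The rest of these 35 genes were not called for genotype, and 2 of 35 is near the 4.43% called among all genes.

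Seen together, the members shared the step from E18 to P7, at which the dissection changed as well as the age. All 6 were called lower there in wild-type cortex, where 33.4% of tested genes were, and 5 of 6 in *Setd1a*+/- cortex, where 35% were. The median change of the 6 was -0.38 in wild-type and -0.31 in *Setd1a*+/-, against 0.00 and -0.01 over all tested genes. In wild-type *Xpo7*, *Herc1* and *Rb1cc1* were lower from E18 to P7 and higher from P7 to P35, a pattern called in 6.02% of tested genes, and in *Setd1a*+/- the same 3 genes showed it, as did 7.83% of tested genes. From E14 to E18 *Cul1* and *Xpo7* were lower in both genotypes, as were 34.1% of genes in wild-type and 32.5% in *Setd1a*+/-, and *Trio* was higher in *Setd1a*+/-, as were 32% of genes. *Rb1cc1* had a change of -0.09 at this step in both genotypes (adjusted p = 0.0643 in wild-type and 0.0910 in *Setd1a*+/-, edgeR), which was called lower in wild-type on leaving out E14 wild-type replicate 5, E18 wild-type replicate 5, P70 wild-type replicate 4 or E14 *Setd1a*+/- replicate 3 (down to 0.0178) and in *Setd1a*+/- on leaving out E14 *Setd1a*+/- replicate 4 or E18 *Setd1a*+/- replicate 1 (down to 0.0334), in wild-type also without both libraries with *Xist* counts (0.0312), and in *Setd1a*+/- also with totals alone (0.0233) and the length correction (0.0390). From P7 to P35 *Xpo7*, *Herc1* and *Rb1cc1* were higher, as were 32.6% of genes in wild-type and 34.5% in *Setd1a*+/-, and *Sp4* was lower in *Setd1a*+/-, as were 33.3% of genes. No member was called between P35 and P70, a step at which 1.06% of genes were called in wild-type and 2.98% in *Setd1a*+/-. The members' unadjusted p there was at least 0.0897.

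**Figure D2:**
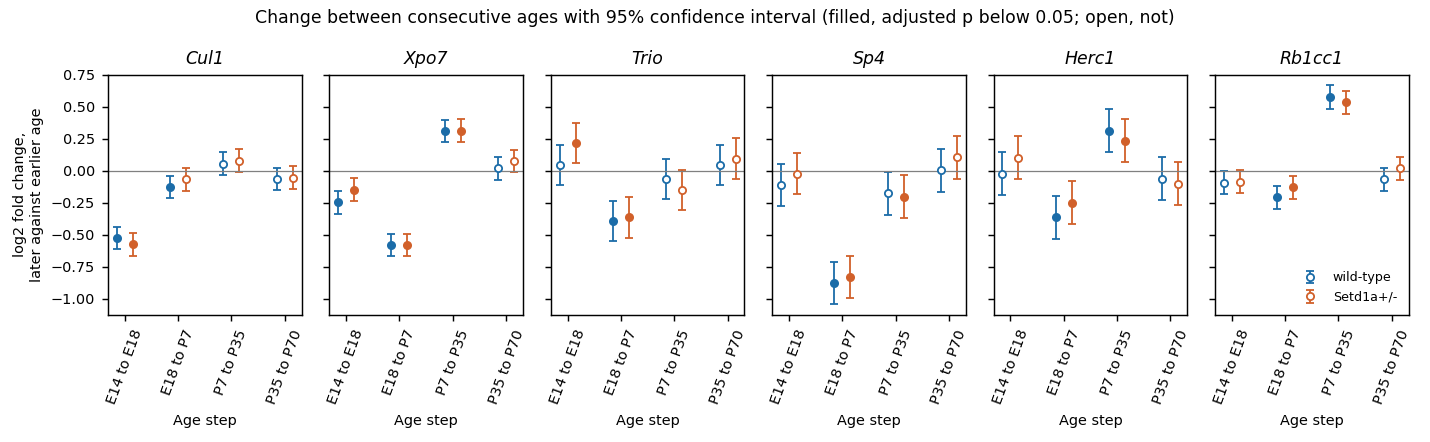
Log2 fold change of each gene between consecutive ages, later against earlier, in wild-type (blue) and Setd1a+/- (orange) cortex. Points are estimates from the fit of 10 groups of 5 libraries, bars 95% confidence intervals, and filled points have an adjusted p below 0.05. The step from E18 to P7 is below 0 for each gene, from -0.87 for Sp4 to -0.07 for Cul1, and the points at P35 to P70 are open.

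Set beside the glutamate receptor genes among the other exome-wide significant genes, the members' changes with maturation were small, whereas *Cacna1g* and *Setd1a* lay within their range of size. *Grin2a*, a subunit of NMDA receptors, was 5.66 higher on the log2 scale in mature than in embryonic wild-type cortex (SE 0.16), *Gria3*, a subunit of AMPA receptors, 2.76 (SE 0.06) and *Cacna1g*, a T-type calcium channel, 0.67 (SE 0.09). *Setd1a* decreased by 0.35 (SE 0.04). Of the 6 members, *Cul1*, *Xpo7*, *Trio* and *Sp4* decreased by between 0.37 and 1.10, *Rb1cc1* rose by 0.29 (SE 0.03) and *Herc1* was not called. In *Setd1a*+/- cortex the same 4 genes were lower and *Rb1cc1* higher. With 5 of 6 members called in each genotype, 4 lower and 1 higher, the background was 88% of tested genes called in wild-type (44.2% lower, 43.8% higher) and 87.9% in *Setd1a*+/- (44.2% lower, 43.7% higher).

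**Figure D3:**
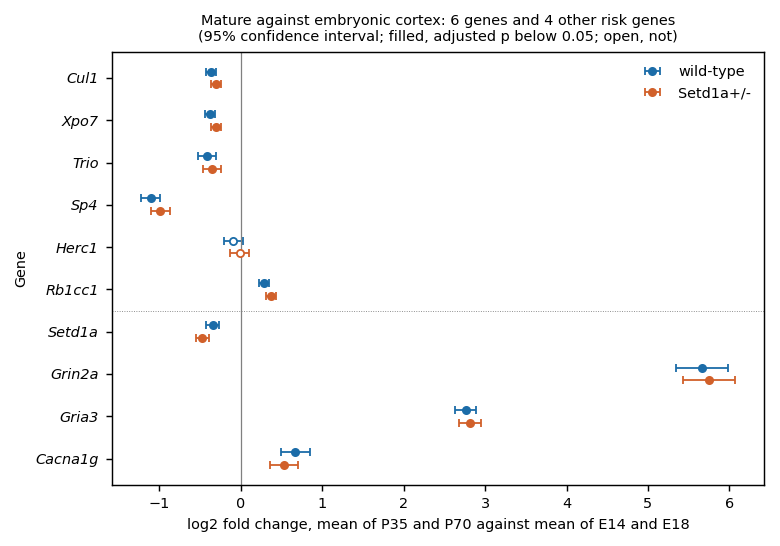
Log2 fold change of the mean of P35 and P70 against the mean of E14 and E18 for the 6 genes (above the dotted line) and 4 other risk genes (below it), with 95% confidence intervals, in wild-type (blue) and Setd1a+/- (orange) cortex. Filled points have an adjusted p below 0.05. Grin2a stands at 5.66 and Gria3 at 2.76 in wild-type, whereas the 6 genes lie between -1.10 and 0.29.

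To ask whether loss of 1 *Setd1a* allele altered these genes, genotypes were contrasted with age as a covariate. None of the 6 was called, in a test that called 4.43% of 16330 genes, and none had an unadjusted p below 0.05, where 14.5% of genes did. The estimates in *Setd1a*+/- against wild-type cortex were small with narrow intervals. *Xpo7* differed by 2.09% (95% confidence interval -0.733% to 4.99%, adjusted p = 0.554 by edgeR), *Trio* by 1.11% (-3.71% to 6.18%, adjusted p = 0.911) and *Herc1* by 0.856% (-4.26% to 6.24%, adjusted p = 0.939). *Rb1cc1* differed by -0.478% (-3.26% to 2.39%, adjusted p = 0.936), *Cul1* by -0.783% (-3.40% to 1.91%, adjusted p = 0.876) and *Sp4* by -1.70% (-6.59% to 3.45%, adjusted p = 0.855). Each interval included 0, and a change of more than 6.59% in either direction lay outside all 6 intervals. The p-values measure the spread between these mice, 25 per genotype.

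Single ages had wider intervals and gave no call either. None of the 30 combinations of gene and age was called. Among all genes 0.735% were called at P7 and 0.233% at P70, and 0.129%, 0.11% and 0% at E14, E18 and P35. These shares moved with the libraries kept, the tool and the model. Without the 2 libraries with *Xist* counts the number of genes called went from 21 to 795 at E14 and from 18 to 77 at E18, and without P7 wild-type replicate 2 it went from 120 to 7 at P7. No member was among the genes called in these fits. With all libraries kept, DESeq2 called 128 genes at P7, 114 at E14, 111 at E18, 77 at P70 and 11 at P35, and limma-voom called 16, 26, 10, 30 and 0 at these ages in the same order. By edgeR 1 gene was called at E18 with RNA integrity as a covariate, 3 at E14 with totals alone and 20 at P7 with the replicate block. The libraries of the 2 genotypes overlapped in all 30 combinations, whereas 2.25% of all genes did not overlap at P35, 2.23% at P7, 2.22% at E18, 1.79% at P70 and 0.784% at E14. The 1 unadjusted p below 0.05 was that of *Xpo7* at P70, an age at which 6.55% of genes had one. It read 102.2, 92.9, 97.1, 88.8 and 92.2 CPM in wild-type and 101, 99.6, 99.9, 106 and 100 CPM in *Setd1a*+/- libraries. The wild-type library at 102.2 CPM lay among the *Setd1a*+/- values and the other 4 wild-type libraries lay below all of them. The difference was 6.97% (95% confidence interval 0.615% to 13.7%), with an adjusted p of 0.667 by edgeR.

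At E14 all 6 members were lower in *Setd1a*+/- cortex, by 1.26% for *Cul1* to 8.96% for *Sp4*, none of them called, although *Cul1* was above 0 with library totals as the only scaling, without wild-type replicate 5, alone or with the other doubtful libraries, and without *Setd1a*+/- replicate 2 (0.02). The median log2 change of all genes was itself below 0 there, at -0.03, and 61.3% of tested genes were lower. Markers of other cells also differed between these libraries. The 5 erythroid markers summed to between 255 and 950.2 CPM in *Setd1a*+/- (median 900) and between 321 and 1026 CPM in wild-type libraries (median 369), and the 6 endothelial markers to 572 CPM in *Setd1a*+/- replicate 2, the lowest of its group for *Cul1*, *Xpo7*, *Sp4* and *Herc1*, against at most 214 CPM in the others. Their part in these differences was not tested. *Sp4* at E14 read 52.2, 42.7, 54.3, 45.3 and 49.9 CPM in *Setd1a*+/- libraries, of which 3 lay below the wild-type range of 51.5 to 57.6 CPM and 2 within it (log2 change -0.14, SE 0.08, adjusted p = 0.560). *Trio* (-0.11, SE 0.08) and *Herc1* (-0.12, SE 0.08) at E14 moved with single wild-type libraries. Without wild-type replicate 2, the highest library for both, they were -0.05 and -0.06, and without replicate 5, the lowest and 1 of those with *Xist* counts, -0.19 and -0.20. Without the 3 doubtful libraries the differences were -0.19 for *Trio* (adjusted p = 0.0799) and -0.20 for *Herc1* (adjusted p = 0.0692), and with the length correction they were -0.03 and -0.02. At P70 all 6 were above 0, as were 51.4% of tested genes, but the sign did not hold for 3 of them. *Herc1* was below 0 under the length correction (-0.04), with RNA integrity as a covariate (-0.0059) and without wild-type replicate 1 or 4 or *Setd1a*+/- replicate 5 (down to -0.03), *Trio* without wild-type replicate 4 (-0.0014) and *Cul1* without *Setd1a*+/- replicate 5 (-0.0074).

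The effect of genotype on the course with age was tested directly. The age by genotype interaction was not called for any member (adjusted p between 0.928 and 0.997) or for any of the 16330 genes by edgeR (21 genes by DESeq2), with members' unadjusted p from 0.166 upwards. These values moved with the doubtful libraries. Without the 2 libraries with *Xist* counts edgeR called 12 genes for the interaction, and without all 3 doubtful libraries 48, none of them a member. The members' lowest unadjusted p without the *Xist* libraries were 0.0664 for *Xpo7*, 0.0669 for *Herc1* and 0.0756 for *Trio*, with adjusted p between 0.393 and 0.416. The change from embryonic to mature cortex was less negative or more positive in *Setd1a*+/- for each member, by 0.05 (*Trio*) to 0.12 (*Sp4*) on the log2 scale. The SE lay between 0.04 and 0.08 and the unadjusted p between 0.0616 and 0.488 by edgeR. Under the alternatives only *Trio* went below 0, at -0.0039 with the length correction and at -0.0044 at the lowest. Of all tested genes 48.7% had a difference below 0, with a median of 0.0029. None was called, in a test that called 0.00612% of genes. The members share their libraries, so that these 6 differences are not independent of each other.

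**Figure D4:**
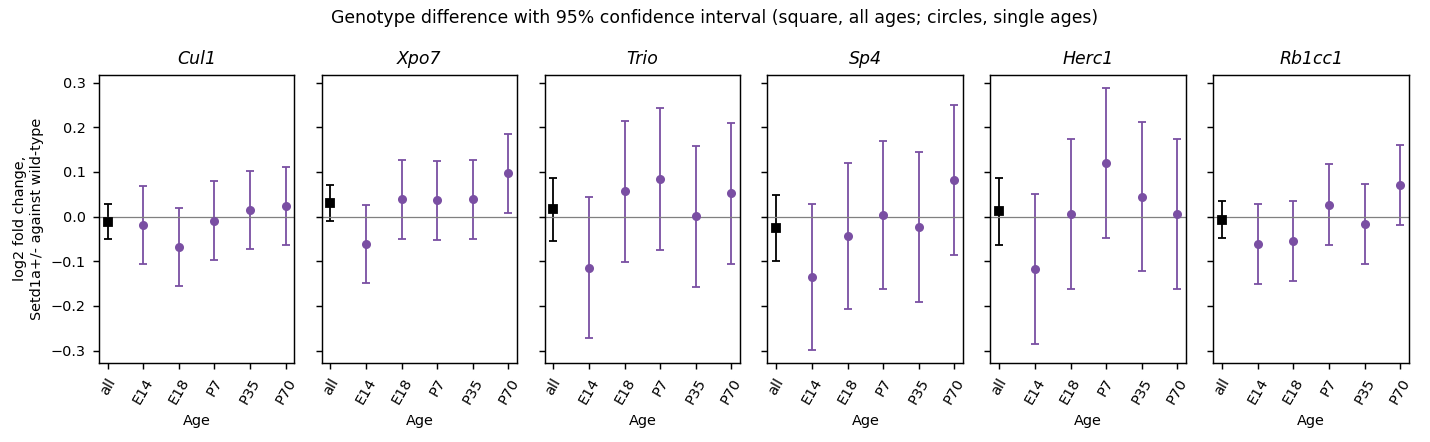
Log2 fold change of each gene in Setd1a+/- against wild-type cortex, with 95% confidence intervals. Black squares are the estimates with age as a covariate (25 libraries per genotype), violet circles those at single ages (5 per genotype). The squares lie between -0.02 and 0.03 and their intervals include 0, and of the circles only Xpo7 at P70 has an interval that leaves out 0.

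The spread between libraries of 1 group was not the same for all members. The coefficient of variation within groups reached 15.7% for *Herc1* and 15.6% for *Trio*, both in wild-type E14, where they were 9.12% and 10.3% without replicate 5 with its *Xist* counts, and 14.6% for *Sp4* in wild-type P35, but at most 7.97% for *Rb1cc1*, 7.37% for *Xpo7* and 6.90% for *Cul1*. *Trio* and *Herc1* rose and fell together. Their deviations from the group means had a Pearson r of 0.71 over the 50 libraries, the highest of the 15 pairs. *Xpo7* and *Trio* followed at 0.56, and *Rb1cc1* had 0.48 with *Trio*, 0.46 with *Xpo7* and 0.44 with *Herc1*. The lowest was -0.21 for *Cul1* and *Trio*. The libraries share the preparation of all genes, and the r is a description.

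The deviations of the members of large exonic length followed a feature of the library. In each library the deviation of every tested gene was regressed on the log2 of its exonic length, which gave slopes from -0.063 in wild-type E14 replicate 5 and -0.054 in wild-type P70 replicate 4 to 0.046 in wild-type E14 replicate 3. The r of a gene's deviations with these slopes was 0.82 for *Trio*, 0.75 for *Herc1* and 0.52 for both *Xpo7* and *Rb1cc1*, and it was 0.03 for *Sp4* and -0.16 for *Cul1*, the shortest. Without the 2 libraries of lowest slope it was 0.74 for *Trio*, 0.68 for *Herc1*, 0.45 for *Xpo7* and 0.39 for *Rb1cc1*. The slope was made from all tested genes, the members among them, so genes of large exonic length tend to follow it. No r was taken for other genes of like length, and these r do not set the members apart. After a correction of each library for gene length, the SE of the genotype difference went from 0.0351 to 0.0214 for *Trio* and from 0.0373 to 0.018 for *Herc1*, and the differences were -0.0016 (adjusted p = 0.991) and -0.0068 (adjusted p = 0.922). The falls from E18 to P7 in wild-type were smaller under this correction, at -0.28 for *Trio* and -0.24 for *Herc1*, and both were still called. Deviations of *Trio* and *Herc1* also moved with the summed pan-neuronal markers (r of 0.60 and 0.63) and, in the opposite direction, with those of the choroid plexus (-0.49 and -0.48) and, for *Herc1*, of progenitors (-0.53). Of the other members *Cul1* had an r of -0.53 with endothelial markers, *Xpo7* -0.49 with microglial markers and *Sp4* -0.44 with both. These r are among the larger over 11 marker lists, and the parts of length and of cell composition were not separated. Single libraries far above their group weigh on them. Such were P7 wild-type replicate 2 for choroid plexus and E14 *Setd1a*+/- replicate 2 for endothelial markers. The r with markers were not taken again without these libraries.

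**Figure D5:**
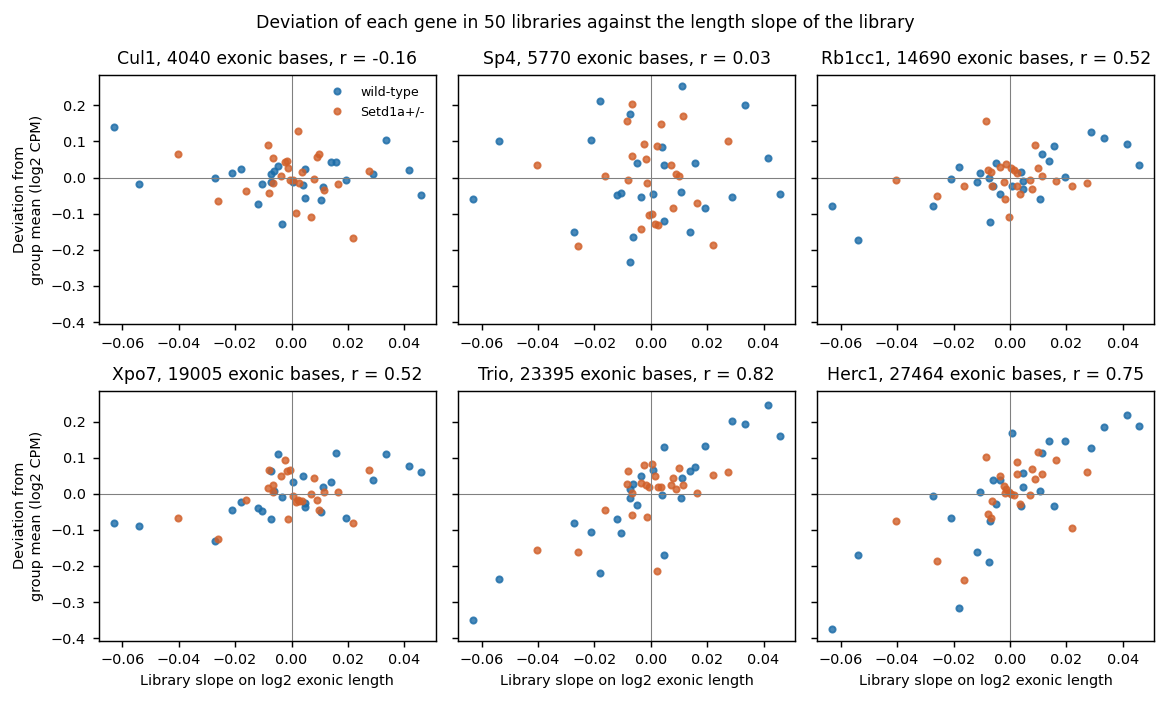
Deviation of each gene from its group mean (log2 CPM) in 50 libraries against the slope of all genes' deviations on log2 exonic length in the same library, with panels ordered by exonic length. Blue points are wild-type and orange points Setd1a+/- libraries. The points of Trio (r = 0.82) and Herc1 (r = 0.75) rise with the slope and those of Cul1 (r = -0.16) and Sp4 (r = 0.03) do not.

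The genes nearest to each member were found by the Pearson r of log2 CPM over the 50 libraries, in which the 5 ages dominate. They were *Exo5*, *Bmi1* and *Rsbn1* for *Sp4* (r of 0.98, 0.97 and 0.97), *Kdm3a*, *Mon1b* and *Zbtb17* for *Xpo7* (0.96 for each), and *D630045J12Rik*, *Mdn1* and *Macf1* for *Trio* (0.95 for each). *Cul1* was nearest to *Gpc4*, *Nr2e1* and *Garem2* (0.96, 0.96 and 0.95), *Rb1cc1* to *Rasal2*, *Ppp1r12a* and *Zfp612* (0.96 for each), and *Herc1* to *Wdfy3*, *Fat3* and *Smg1* (0.85, 0.78 and 0.78). Once the group means were taken off, the nearest genes of *Herc1* were *Mycbp2*, *4932438A13Rik* and *Vps13d* (0.94, 0.92 and 0.92), with exonic lengths at the 99.4th to 99.9th percentile. Those of *Trio* were *D630045J12Rik*, *Ubr4* and *Socs7* (0.93, 0.93 and 0.92), at the 97.1st, 99.1st and 84.4th percentile. For *Xpo7* they were *Kansl1*, *Dhx30* and *Ap1g1* (0.80, 0.79 and 0.76), for *Rb1cc1* *Bicd1*, *Arhgap21* and *Map4k3* (0.72, 0.71 and 0.71), for *Sp4* the zinc finger genes *Zfp266* and *Zfp60* with *Fem1c* (0.71, 0.71 and 0.69), and for *Cul1* *Pdcd4*, *Svip* and *Eif2s2* (0.68, 0.66 and 0.66). No member was among the 3 nearest genes of another.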

How the data were processed

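Per the labels and file headers, the deposited values are raw counts of fragments over exons, which the authors made with featureCounts 1.4.6-p2 from reads trimmed with Trimmomatic and aligned with STAR to GRCm38 (Ensembl release 102). Fragments over several genes were counted for each, strand was not used, and the authors normalized nothing in the deposited counts.

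Each library took its age, genotype and number from its label. Symbols came from GENCODE vM21, which held 55141 of 55487 genes. Protein-coding genes were kept by edgeR's filterByExpr (minimum count 10, in at least 5 libraries), given TMM factors and tested by quasi-likelihood in edgeR 4.0.16 under R 4.3.3, once with age and genotype and once with the 10 groups. P-values were adjusted over all 16330 genes by the Benjamini-Hochberg method, and genes below 0.05 were called. CPM and RPKM used TMM-scaled totals and exonic length, and log2 CPM a prior count of 2. Mature means the mean of P35 and P70, embryonic that of E14 and E18.

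In counts simulated from these libraries, the genotype test recovered 98.5% of genes changed by 1 on the log2 scale, 70.1% of those changed by 0.3 and 41.8% of those changed by 0.15, and the test at P70 recovered 81.8%, 37.3% and 6% of them. The changed genes were drawn at random from all tested genes, low counts included. The shares for genes with counts like those of the members were not taken.

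The members, lists and alternatives were chosen with earlier results of these data known, although no measured value was used to name the members. Genes were named by a rule: the 6 members, the 4 other risk genes, list genes called for genotype and the list genes of largest mature change in either direction, and each member's 3 nearest genes. *Atg101*, *Herc2* and *Herc3* were named after their values were seen. The result of 1 gene list is not reported here. Alternatives were limma-voom (limma 3.58.1), DESeq2 1.42.0, its size factors in edgeR, totals alone, other filters, inclusion of non-coding genes, a covariate for RNA integrity, a loess correction for exonic length (span 0.3), a replicate block, a threshold of 0.01, and leaving out libraries.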

Additional observations from a re-analysis of the deposited data

Results flagged for a closer look

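In 60 groups of 5 libraries, 1 library lay far from the other 4 in 6, as the gap to the nearest library exceeded 0.71 of the range of the group. Chance alone gives about 5% of such groups. *Trio* accounted for 4 of the 6. It was lowest in E14 *Setd1a*+/- replicate 5 (255.3 CPM, the others 288.1 to 296.7), in P7 *Setd1a*+/- replicate 4 (246 CPM, the others 257.5 to 261.5) and in P70 *Setd1a*+/- replicate 5 (213.4 CPM, the others 250.7 to 261.7), and highest in E18 wild-type replicate 5 (363.1 CPM, the others 300.4 to 315). *Herc1* was lowest in E18 *Setd1a*+/- replicate 3 (247.4 CPM, the others 285.5 to 295.2), and *Xpo7* was highest in P70 *Setd1a*+/- replicate 4 (105.9 CPM, the others 99.55 to 100.7). E14 *Setd1a*+/- replicate 5 decides the call of *Trio* between E14 and E18 in that genotype, which had an adjusted p of 0.0555 without it (edgeR).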

How the results depend on the processing

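No member was called for genotype, at any age, in the interaction or in the genotype difference of the mature change, under any alternative run. The test for age was not run with the replicate block. Under the other alternatives all 6 were called for age in wild-type and 5 or 6 in *Setd1a*+/-, where *Herc1* was lost with DESeq2 (adjusted p = 0.0557), with its size factors (0.0648), at the threshold of 0.01 and on leaving out any of 9 *Setd1a*+/- libraries (up to 0.0845). Of 48 changes between consecutive ages 23 were called, and 19 to 28 under the alternatives, 22 to 24 on leaving out 1 library. Of the 12 mature changes 10 were called, and 10 to 12 under the alternatives. Over both kinds of change, 1 call was lost and 1 gained with RNA integrity as a covariate. With totals alone 7 calls were gained and 0 lost. Scaling by totals alone moved the median mature change of all genes to -0.14 in both genotypes, and the members' calls under it include that shift.

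Of 6510 single values of the members, 106 changed sign, 97 of them by less than 1 SE. The others were uncalled before. With the length correction the mature change of *Herc1* was 0.0485 in wild-type and 0.0634 in *Setd1a*+/- and the E14 to E18 step of *Herc1* in *Setd1a*+/- -0.0105. The genotype difference at P7 was -0.0251 for *Xpo7* and -0.0192 for *Rb1cc1*, and with the block added -0.0243 and -0.0186. The mature change of *Herc1* in *Setd1a*+/- was 0.0594 with the filter of 10 CPM. The P7 to P35 step of *Cul1* in wild-type was -0.0362 with totals alone. Beside the members, *Herc4* had a mature change of 0.0172 in wild-type with the length correction. The cause was not tested.

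Same-numbered libraries of the 2 genotypes at 1 age correlated between -0.20 and 0.46 (median 0.06, over 0.1 in 9 of 25 pairs), and 7 of 25 correlated best with their own number, so the numbers were not taken to pair mice. With a replicate block 0 members were called in each genotype test, as without it.

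A difference of 0.15 at P70 was mostly missed in genes drawn at random (6% recovered in simulation, which was not run for the other single ages or for the members alone). The counts cover total transcripts of each gene, and isoforms, protein and cell types were not measured.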
